A study of Mus musculus with 9 samples.

Results

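Heterozygous erythroblasts were set against both homozygous genotypes of a Desert hedgehog (Dhh) null allele, to ask which genes depart from a monotonic effect of Dhh allele number. The members were the 3 heterozygous (Dhh+/-) libraries of 9 in all, and each was weighed against the equal-weight mean of 3 wildtype (Dhh+/+) and 3 knockout (Dhh-/-) libraries. RNA was sequenced from spleen cells of 4-week-old C57BL/6 mice, sorted for both CD71, the transferrin receptor, and Ter119, a red cell lineage antigen, with no treatment named. The table held 20368 genes, and the contrast was tested in the 9543 genes with a value of at least 1 FPKM in 3 or more of the 9 libraries. FPKM is a read count divided by gene length and library size. In these values the library term matched a size factor from the median ratio of genes between libraries. Whether the 3 libraries of a genotype are 3 mice is not in the labels, and they name no cell-specific deletion. The p-values therefore measure only how far these 9 libraries vary, which may be technical.

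Dhh is a secreted ligand of the Hedgehog family. It binds the receptor Ptch1, which frees Smo to signal to the Gli transcription factors, and Ptch1 is itself a target of the pathway. In the mouse the spleen makes red cells beside the bone marrow, and Hedgehog ligands have been studied there as regulators of erythroblast maturation. A gene that follows allele number monotonically has a heterozygous level between the levels of both homozygotes. A gene that departs from it has its highest or lowest level in the heterozygotes.

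No gene passed. The contrast, the heterozygous mean minus the mean of the wildtype and knockout means on the log2(FPKM + 1) scale, had no gene at a Benjamini-Hochberg adjusted p below 0.05 in limma, in either direction (0.0% of 9543, lowest adjusted p 0.9999). Before adjustment, 84 genes (0.88%) had a p below 0.05, where 477 would if p were uniform. Of these, 77 (0.807% of genes tested) had lower values in heterozygotes and 7 (0.0734%) had higher values. All 77 had their lowest genotype mean in the heterozygotes, and all 7 had their highest there. The split turned to 14 lower and 75 higher when each library was scaled to its sum without globin genes, and was 68 lower and 12 higher under quantile normalization. Single libraries moved it too: 31 genes were lower without heterozygous replicate 1 and 167 without wildtype replicate 3. Leaving out knockout replicate 3 gave 48, and leaving out knockout replicate 2 gave 244. A stricter comparison took the larger of the p-values against wildtype and against knockout. It also had no gene at an adjusted p below 0.05 (0.0%, lowest adjusted p 1.0), with 1 gene higher (0.0105%) and 13 lower (0.136%) at an unadjusted p below 0.05. Knockout minus wildtype in the same limma fit had 0 genes (0.0%) at an adjusted p below 0.05 and 43 (0.451%) at an unadjusted p below 0.05.

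The 3 genotype means were in monotonic order in 2608 genes (27.3%), rising with null alleles in 1325 and falling in 1283. The heterozygous mean was the highest in 3387 genes (35.5%) and the lowest in 3548 (37.2%). Of the 6 possible orders of 3 means only 2 are monotonic, so most genes can fall outside that order with no genotype effect. An extreme heterozygous mean alone is therefore no evidence of a departure. All 3 heterozygous libraries lay above all 6 homozygous libraries in 21 genes (0.22%) and below all 6 in 62 (0.65%). If genotype made no difference, each arrangement would be 1 of the 84 splits of 3 against 6 libraries, a share of 0.0119. Both observed shares were below it, so a lack of overlap in a gene is not in itself unusual. The contrast was above 0 in 49.5% of genes and below 0 in 50.5%, with a median of -0.0014. The size factors centre the genes of each library, so this near-even split follows largely from the scaling. The 95% confidence interval of the contrast had a median half-width of 0.37 log2 units. On the log2(FPKM + 1) scale the interval lay within a 2-fold change either way in 88.6% of genes and within 1.5-fold in 70.2%. Larger departures on that scale are bounded for most genes, and smaller ones were not detectable with these libraries. The scale understates folds of low genes, so FPKM itself is bounded less tightly for them, and 1417 genes averaged below 2 FPKM.

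**Figure D1:**
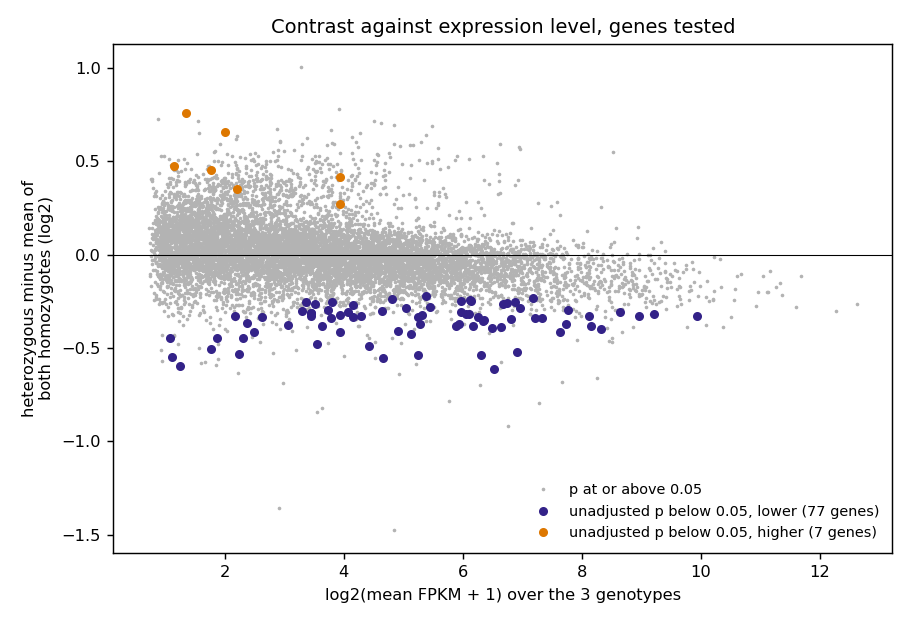
Each point is 1 of the 9543 genes, with log2(mean FPKM + 1) over the 3 genotypes on the x axis and the contrast in log2 units on the y axis. The 77 genes lower in heterozygotes at an unadjusted p below 0.05 lie mainly at higher expression and the 7 higher genes at lower expression, and none passes after adjustment.

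The contrast moved with expression level. Among 1417 genes averaging below 2 FPKM the median contrast was 0.06 and 35.2% were lower in heterozygotes. Among 1517 genes averaging 50 FPKM or more it was -0.08 and 78.8% were lower. The plot of the contrast against level shows this slope. Of the 77 lower genes, 61 averaged at least 10 FPKM, and of the 7 higher genes, 2 did.

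Before the single genes, the libraries themselves differed in ways that touch the contrast. The reads recovered from the deposited values ranged from 7.05 to 14.23 M per library. Of the heterozygous libraries, replicate 2 was shallow, as were replicates 1 and 2 of wildtype and replicate 2 of knockout (up to 9.66 M), and the other 5 libraries were deeper (13.05 M or more). The mean log2(FPKM + 1) of 99 leukocyte marker genes, most of which a pure erythroblast sort should lack, was 4.45, 3.99 and 1.91 in wildtype replicates 1 to 3. It was 3.5, 3.81 and 3.7 in heterozygotes, and 3.15, 4.38 and 3.57 in knockouts. Not all these markers fell together: in wildtype replicate 3 Ctsb was at 331 FPKM and C1qa at 12.2, so the mean need not measure other cells alone. Wildtype replicate 3 stood apart at the low end. Knockout replicate 2 also stood apart: the Y-linked gene Ddx3y was at 0.41 FPKM there and at 15.6 to 26.6 in the other 8 libraries, and Kdm5d was at 0.0 against 3.62 to 5.18. Dhh had a value above 0 only in heterozygous replicate 1 (0.0267 FPKM) and was listed at 0 in the other 8, so its level does not check the labels. In bulk samples, fewer cells of a type and less RNA per cell cannot be told apart.

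The heterozygous libraries had a smaller median spread per gene than the libraries of either homozygote, though they were not alike in every measure. The median within-genotype SD of log2(FPKM + 1) was 0.141 in heterozygotes, 0.257 in wildtype and 0.222 in knockouts. Heterozygotes had the smallest of the 3 SDs in 5659 genes (59.3%). On the first principal component, which held 62.2% of the variance, the heterozygous libraries lay at -5.74, -5.81 and -5.62. Wildtype lay at -31.54, -7.61 and 58.77, and knockouts at 17.94, -28.0 and 7.6, so both homozygotes reached beyond the heterozygotes on both sides. On the second component (11.1%) the heterozygous libraries lay at 6.22, -15.31 and 4.68, with the shallow replicate 2 apart. By chi-square over its degrees of freedom, from the reads, replicate 2 was 38.88 and 36.25 from heterozygous replicates 1 and 3. It was 8.7 from wildtype replicate 2 and 13.03 from knockout replicate 2, both also shallow. The larger wildtype spread rested on 1 library: without wildtype replicate 3 the median wildtype SD was 0.146, and without knockout replicate 2 the knockout SD was 0.0982, against 0.102 to 0.126 for pairs of heterozygous libraries.

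**Figure D2:**
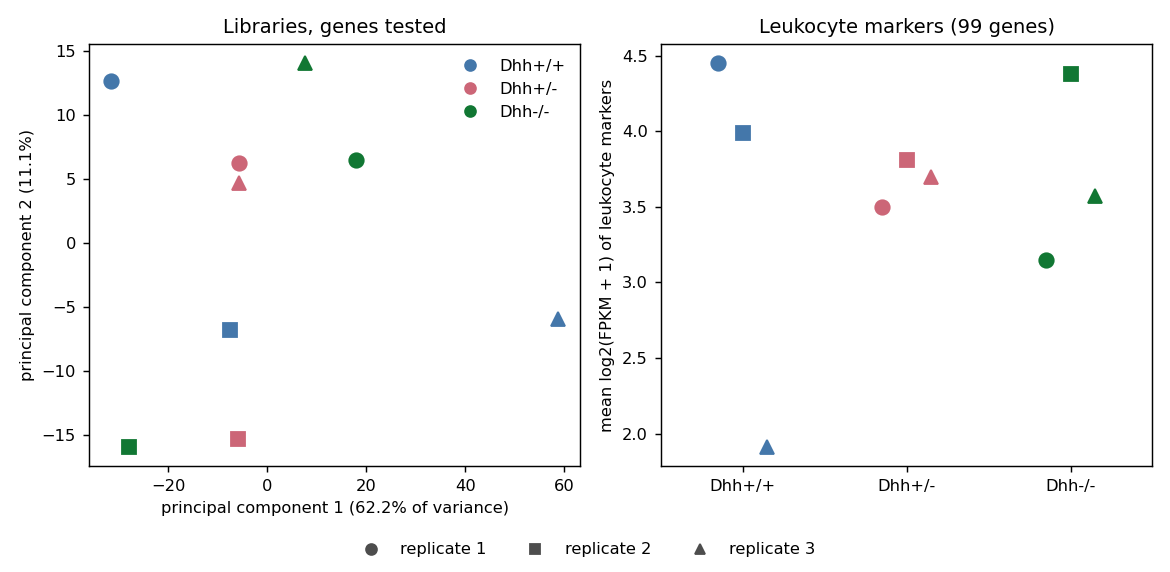
Left, the 9 libraries on the first 2 principal components of the genes tested, and right, the mean log2(FPKM + 1) of 99 leukocyte markers by genotype, with colour for genotype and shape for replicate. The 3 heterozygous libraries share 1 position on the first component, between -5.81 and -5.62, while wildtype replicate 3 lies at 58.77 and has the lowest marker mean, 1.91. On the second component heterozygous replicate 2 lies apart from the other heterozygous libraries, at -15.31.

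Among the genes with lower values in heterozygotes, the lowest unadjusted p belonged to Hbq1b (ENSMUSG00000073063, mm10 chromosome 11, 32286965 to 32287784), a theta-type gene of the alpha globin cluster. It was at 227, 238 and 197 FPKM in wildtype, 159.7, 163 and 158 in heterozygotes, and 207, 206 and 216 in knockouts. The 3 heterozygous libraries lay below all 6 others and within 1 narrow range. The contrast was -0.42 ± 0.09 (SE, 95% interval -0.63 to -0.21), with heterozygotes -0.45 ± 0.11 against wildtype and -0.38 ± 0.11 against knockout. Its limma p was 0.00143 unadjusted and 0.9999 after adjustment. The exact 2-sided permutation test of 3 against 6 libraries gave p = 0.0119, the smallest that 84 splits allow. Hbq1b was picked for its low p in these same libraries, so the permutation p is no separate support and is not adjusted for that choice. Hbq1b has a near-identical neighbour, Hbq1a, so reads can be divided uncertainly between them.

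Snrnp25 (ENSMUSG00000040767, chromosome 11, 32205415 to 32208984), which encodes a protein of the minor spliceosome, lies 78.0 kb from Hbq1b at the edge of the same cluster. It was at 79.1, 89.3 and 76.2 FPKM in wildtype, 61.2, 61.9 and 68.7 in heterozygotes, and 83.7, 74.8 and 83.0 in knockouts. Again the heterozygous libraries lay below all 6 others (contrast -0.34 ± 0.1, limma p 0.00689 unadjusted). The region within 100 kb of Hbq1b was looked at after these values were seen. It holds 11 measured genes, of which 8 were tested and 2, Hbq1b and Snrnp25, had an unadjusted p below 0.05 (beside 0.88% of all genes). The region was centred on Hbq1b for its low p and Snrnp25 was already seen, so this count is no evidence of clustering.

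In the other 6 tested genes of the region, heterozygous and homozygous libraries overlapped. The adult alpha globin gene Hba-a1 was at 3226, 2889 and 2069.6 FPKM in wildtype, 1686, 3674 and 1677 in heterozygotes, and 1928, 3069 and 1958 in knockouts (contrast -0.18 ± 0.29). Its near-identical copy Hba-a2 had a contrast of -0.2 ± 0.31. Hbq1a was at 68.3, 46.6 and 25.5 in wildtype, 14.0, 51.5 and 17.4 in heterozygotes, and 21.6, 61.7 and 18.5 in knockouts (-0.59 ± 0.51). In these 3 genes the 4 shallower libraries were the highest, whatever their genotype, whereas Hbq1b did not follow that order. Nprl3, whose introns hold enhancers of the alpha globin genes, had a contrast of -0.08 ± 0.16, and Mpg, a DNA repair glycosylase, -0.13 ± 0.2.

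**Figure D3:**
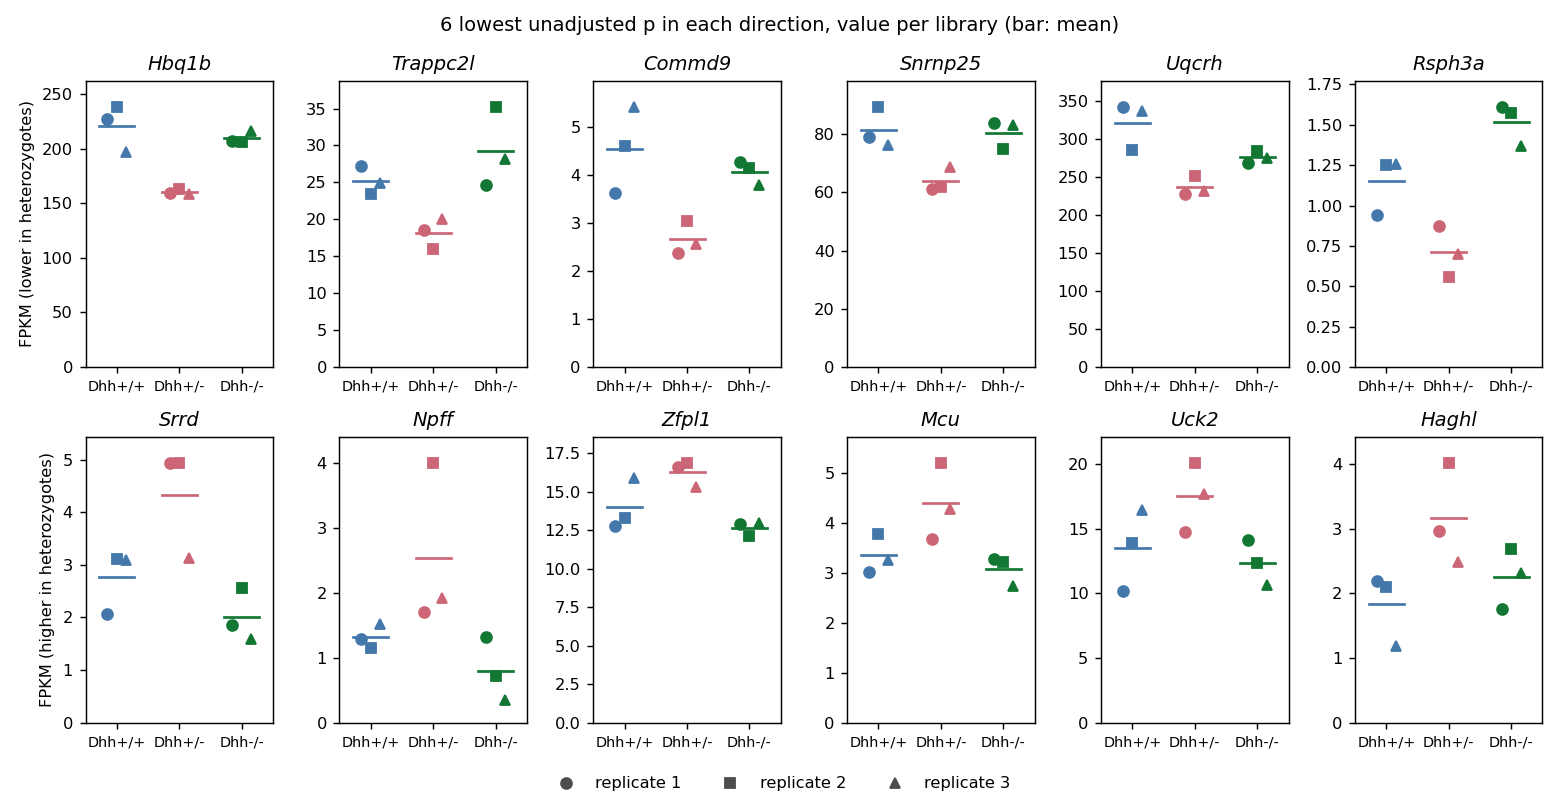
FPKM in each of the 9 libraries for the 6 genes of lowest unadjusted p in each direction, lower in heterozygotes above and higher below, with genotype on the x axis, shape for replicate and a bar at each genotype mean. In the 6 lower genes the heterozygous points lie below all homozygous points, while in the higher genes the groups overlap or nearly touch, apart from the single high point of Npff.

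Other genes with low unadjusted p had varied roles. Trappc2l, a subunit of the TRAPP vesicle-tethering complexes, was at 27.2, 23.4 and 24.9 FPKM in wildtype, 18.5, 16.0 and 20.0 in heterozygotes, and 24.6, 35.2 and 28.1 in knockouts (contrast -0.55 ± 0.13, limma p 0.00248 unadjusted). Commd9, a member of the Commander complex of endosomal sorting, was at 3.63, 4.6 and 5.41 in wildtype, 2.37, 3.03 and 2.56 in heterozygotes, and 4.26, 4.14 and 3.79 in knockouts (-0.53 ± 0.14). Both had heterozygous libraries below all 6 others. Bbc3, the p53 target Puma that promotes apoptosis, was at 13.4, 12.8 and 14.5 in wildtype, 10.1, 8.46 and 9.58 in heterozygotes, and 11.5, 10.1 and 13.1 in knockouts (-0.38 ± 0.12). Its heterozygous values met the lowest knockout value. Of the 15 p53 target genes tested, Bbc3 was the only one at an unadjusted p below 0.05 (6.67%, beside 0.807% of all genes), and 8 of the 15 were lower in heterozygotes.

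Rsph3a, a radial spoke protein of cilia, was low throughout at 0.94, 1.25 and 1.26 FPKM in wildtype, 0.871, 0.56 and 0.702 in heterozygotes, and 1.61, 1.57 and 1.37 in knockouts. Its groups did not overlap, on 8 to 43 reads per library. Kdm6a, an X-linked histone demethylase, was at 36.9, 31.7 and 35.6 in wildtype, 33.7, 27.5 and 32.4 in heterozygotes, and 44.6, 47.5 and 42.4 in knockouts. Here the heterozygotes overlapped wildtype (difference -0.15 ± 0.12) and lay below knockout (-0.51 ± 0.12), so its contrast of -0.33 ± 0.11 came mainly from the knockout side. The highest Kdm6a value was in knockout replicate 2, the library with almost no Y-linked transcripts. Without that library the Kdm6a contrast was -0.31, beside -0.33 with it. Why Kdm6a was higher in the knockouts was not tested.

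Of the 7 genes with higher values in heterozygotes, 5 averaged below 10 FPKM. Srrd (ENSMUSG00000029346, chromosome 5, 112337392 to 112343040) was the only gene higher than both homozygotes at an unadjusted p below 0.05. It was at 2.07, 3.12 and 3.1 FPKM in wildtype, 4.95, 4.94 and 3.13 in heterozygotes, and 1.85, 2.57 and 1.59 in knockouts. Heterozygous replicate 3 barely cleared the highest wildtype value, and the other heterozygous libraries stood well above. The contrast was 0.66 ± 0.19 (limma p 0.00617 unadjusted and 0.9999 adjusted), on 20 to 87 reads per library. The exact permutation p was 0.0238, which is no separate support because Srrd was picked by p in these same libraries.

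Npff, the precursor of neuropeptide FF, was at 1.29, 1.14 and 1.51 FPKM in wildtype, 1.7, 4.0 and 1.91 in heterozygotes, and 1.32, 0.712 and 0.345 in knockouts. Its contrast of 0.76 ± 0.24 rested on 2 to 13 reads per library, with heterozygous replicate 2 far above the rest. Mcu, the pore of the mitochondrial calcium uniporter, was at 3.01, 3.77 and 3.25 in wildtype, 3.68, 5.2 and 4.27 in heterozygotes, and 3.28, 3.21 and 2.73 in knockouts (0.35 ± 0.14). Heterozygous replicate 1 of Mcu fell inside the wildtype range. Uck2, a uridine-cytidine kinase, had a contrast of 0.42 ± 0.17, the Golgi protein gene Zfpl1 0.27 ± 0.11, Haghl 0.45 ± 0.19 and the chemokine gene Ccl25 0.47 ± 0.2. The next in order, Cyb5d1, Mpi, Telo2, Bik and Tom1, had unadjusted limma p-values of 0.0504 to 0.0539.

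Nuclear genes of the respiratory chain held the most members with low unadjusted p of the lists examined. These lists were chosen with earlier results of the same data known, and no set test was made. All 74 respiratory genes listed were tested, none was called after adjustment, and 68 were lower in heterozygotes, beside 50.5% of all genes. In 61 of the 74 the heterozygous mean was the lowest of the 3 (beside 37.2% of all genes). At an unadjusted p below 0.05 there were 9 lower genes (12.2%, beside 0.807% of all genes) and 0 higher (beside 0.0734%), and in 4 of the 74 all heterozygous libraries lay below all others (beside 0.65%). The count of 9 was 1 without heterozygous replicate 1 and 4 without heterozygous replicate 2 (31 and 102 of all 9543 genes). It was 2 under quantile normalization (68 of all genes) and 2 when libraries were scaled without globin genes (14 of all genes). With a term for library depth it was 18 (196 of all genes) and with a leukocyte marker term 19 (210 of all genes). In the main fit 77 of all genes were lower at that p. The list's median contrast was -0.16, with -0.19 against wildtype and -0.11 against knockout. Its genes averaged 14.4 to 593 FPKM, so the shares of all genes are not matched in level. Among all genes averaging 50 FPKM or more, 78.8% were lower (median contrast -0.08), 35 of 1517 at an unadjusted p below 0.05. Among those at 10 to 50 FPKM, 57.8% were lower, 26 of 3125 at that p.

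Each complex of the chain had most members lower. Complex I, which takes electrons from NADH, had 33 of 35 tested genes lower (median contrast -0.17). In complex III 8 of 9 were lower (-0.17) and in complex IV, which passes electrons to oxygen, 10 of 10 (-0.2). ATP synthase had 13 of 15 lower (-0.14), and complex II had 3 of 4 (-0.13).

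Among the single subunits, Uqcrh of complex III was at 342, 285 and 337 FPKM in wildtype, 227, 251 and 231 in heterozygotes, and 268, 284 and 275 in knockouts (contrast -0.33 ± 0.1, limma p 0.00759 unadjusted). The heterozygous libraries lay below all others, with knockouts between the other genotypes on average. Cox7b of complex IV was at 122, 109 and 112 in wildtype, 76.3, 91.6 and 76.9 in heterozygotes, and 95, 119.6 and 88.1 in knockouts (-0.39 ± 0.12), so that heterozygous replicate 2 overlapped knockout replicate 3. The other 7 were Atp5l, Uqcr10, Ndufb11, Cox7a2, Cox8a, Ndufa7 and Ndufa3, with contrasts from -0.4 (Uqcr10) to -0.23 (Cox7a2). The most abundant subunit gene on the list, Atp5b, had a contrast of -0.05 and heterozygous values of 544, 678 and 525 that spanned the wildtype values of 590.1, 594 and 671.

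Genes for other mitochondrial proteins stood beside them among the 77, and were picked out after their values were seen. Pet100, an assembly factor of complex IV, was at 37.6, 33.6 and 40.3 FPKM in wildtype, 26.9, 22.8 and 34.2 in heterozygotes, and 35.7, 37.6 and 39.9 in knockouts (-0.43 ± 0.13). Slirp, which binds mitochondrial messenger RNAs, was at 10.4, 11.4 and 15.7 in wildtype, 9.35, 6.87 and 8.6 in heterozygotes, and 11.6, 12.4 and 10.3 in knockouts (-0.48 ± 0.15). Slirp had no overlap between heterozygotes and the rest, and Pet100 overlapped in heterozygous replicate 3. Tomm7 of the outer membrane import pore had a contrast of -0.41, Pam16 of the inner membrane import motor -0.33, the fission factor gene Mff -0.35, Chchd2 -0.28 and the iron-sulfur cluster factor gene Bola3 -0.31.

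Ribosomal protein genes had a similar median without the low p-values. The 77 tested averaged 22.5 to 1179 FPKM, and 78.8% of all genes averaging 50 FPKM or more were lower. Of the 77, 72 were lower in heterozygotes (median contrast -0.15) and 62 had the heterozygous mean lowest (beside 37.2% of all genes). Only 1 (1.3%, beside 0.807% of all genes) had an unadjusted p below 0.05. In 8 of the 77 the heterozygous libraries lay below all 6 others, beside 0.65% of all genes. The large subunit had 43 of 45 genes lower (-0.15) and the small subunit 27 of 30 (-0.16). The medians were -0.23 against wildtype and -0.07 against knockout, so the difference was mostly from wildtype. Rpl41, of the large subunit, was at 1046, 1053 and 1248 FPKM in wildtype, 808, 911 and 787 in heterozygotes, and 963, 1042 and 956 in knockouts (-0.33 ± 0.11, limma p 0.0131 unadjusted), with no overlap. Many ribosomal protein genes have processed copies elsewhere in the genome that can take part of their reads. Mitochondrial ribosomal proteins had 48 of 54 lower (median -0.12), and Mrpl11 was the 1 gene (1.85%, beside 0.807% of all genes) at an unadjusted p below 0.05. The proteasome, which degrades tagged proteins, had 36 of 41 lower (-0.11) and none at that p.

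These medians depended on wildtype replicate 3. The library medians of the respiratory genes, each as a deviation from the gene's mean over 9 libraries, were -0.12, -0.01 and 0.4 in wildtype, -0.12, -0.16 and -0.01 in heterozygotes, and 0.01, -0.05 and 0.03 in knockouts. The single high value was wildtype replicate 3, the library with the lowest leukocyte marker mean, and the heterozygous medians overlapped the other wildtype medians. Ribosomal genes were at -0.02, -0.01 and 0.41 in wildtype, -0.19, -0.04 and -0.06 in heterozygotes, and -0.09, 0.01 and -0.01 in knockouts. Without wildtype replicate 3, 54 of 74 respiratory genes were lower (median -0.08), 6 of them at an unadjusted p below 0.05, beside 167 of all 9543 genes. In that setting 64 of 77 ribosomal (-0.08), 35 of 54 mitochondrial ribosomal (-0.06) and 30 of 41 proteasome genes (-0.04) were lower. Scaling each library to its sum without globin genes shifted the median of all genes to 0.09. On that scale 52 of 74 respiratory, 55 of 77 ribosomal, 32 of 54 mitochondrial ribosomal and 21 of 41 proteasome genes were lower, with the respiratory median -0.14 and the ribosomal -0.13 relative to all genes. Under quantile normalization 56, 44, 43 and 24 of them were lower.

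**Figure D4:**
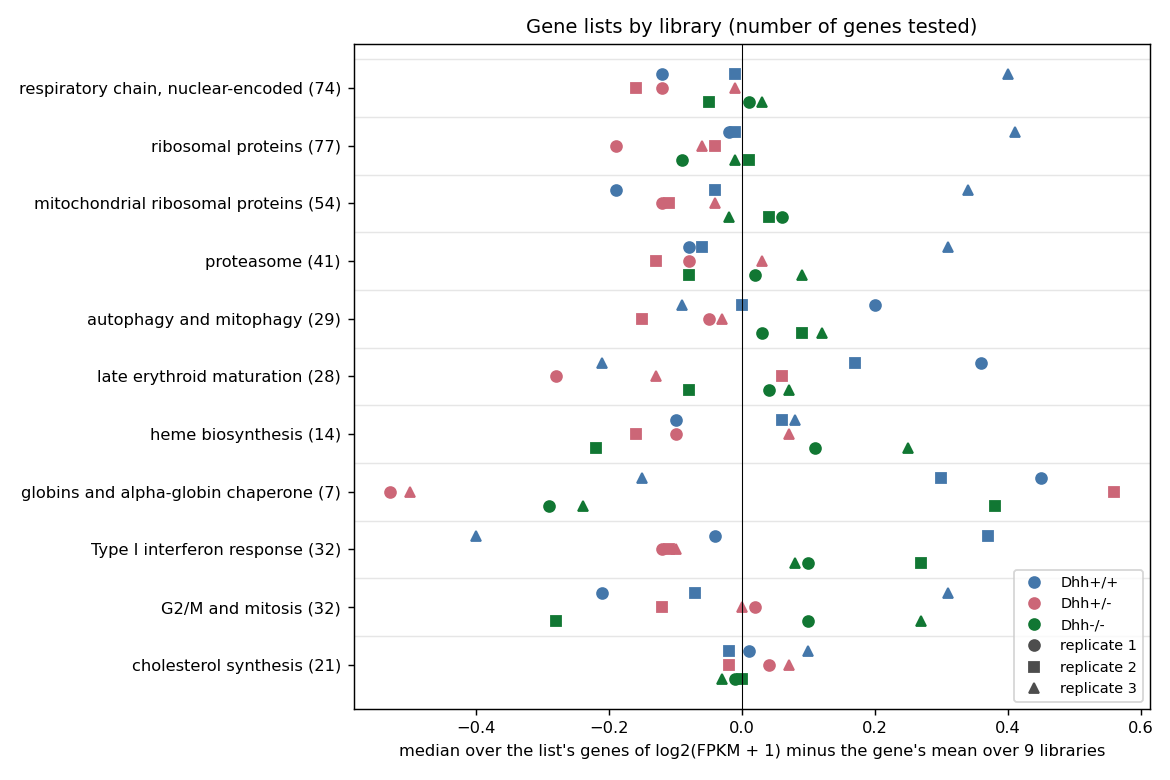
For each of 11 gene lists (rows, with the number of genes tested), the x axis gives the list's median deviation of log2(FPKM + 1) from each gene's mean over 9 libraries, with 1 point per library, coloured by genotype and shaped by replicate. Wildtype replicate 3 lies far to the right for the respiratory (0.4), ribosomal (0.41), mitochondrial ribosomal (0.34) and proteasome (0.31) lists, and the heterozygous interferon points lie together between -0.12 and -0.1.

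Gene length moved with the contrast as well. Genes with a length (summed exons) were divided into 5 bins of equal size, and from the shortest to the longest bin the median contrast was -0.05, -0.02, 0.0, 0.01 and 0.02. The share lower in heterozygotes went from 60.9% to 41.8%. Of the 77 lower genes at an unadjusted p below 0.05, 50 were in the shortest bin and 66 were shorter than the median of 4434 bases. The respiratory genes had a median of 1737 bases and the ribosomal genes 1781. Within the shortest bin the 53 respiratory genes had a median contrast of -0.17, and the 21 longer ones -0.14. Genes in none of the respiratory, ribosomal, mitochondrial ribosomal and proteasome lists were at -0.04 in the shortest bin (1742 genes) and 0.01 in the others (7555 genes). The part of length in the counts was not tested beyond these medians.

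**Figure D5:**
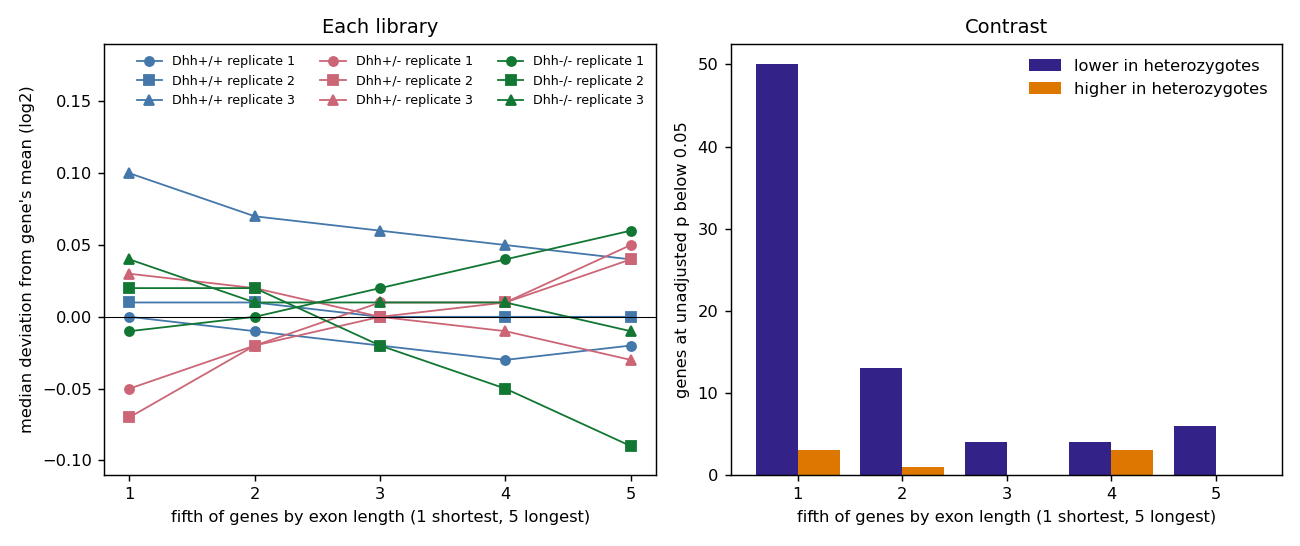
Left, the median deviation of each library from the gene means (log2 units, y axis) by exon length bin (x axis, 5 bins of equal size), and right, the number of genes at an unadjusted p below 0.05 in each bin, lower or higher in heterozygotes. The shortest bin holds 50 of the 77 lower genes, and on the left heterozygous replicates 1 and 2 have their lowest medians in the shortest bin while heterozygous replicate 3 has its highest there.

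No gene of the erythroid lists passed after adjustment. All 28 genes of late erythroid maturation were lower in heterozygotes (median contrast -0.23), 26 with the heterozygous mean lowest (beside 37.2% of all genes). Of the 28, 1, Arl4a (-0.37 ± 0.15), had an unadjusted p below 0.05 (3.57%, beside 0.807% of all genes). The list averaged 32.8 to 4944 FPKM, and 78.8% of all genes averaging 50 FPKM or more were lower. Under quantile normalization 22 of 28 were lower (median -0.07), and on the scale without globin genes 22 of 28 (-0.12). By library the list was at 0.36, 0.17 and -0.21 in wildtype, -0.28, 0.06 and -0.13 in heterozygotes, and 0.04, -0.08 and 0.07 in knockouts. Heterozygous replicate 1 was the lowest of the 9 libraries, and heterozygous replicates 2 and 3 overlapped the homozygotes. Among the 4 shallower libraries alone 13 of the 28 were lower (median 0.03), and without heterozygous replicate 1 the full set had 24 lower (-0.09).

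Heme biosynthesis genes were lower in 14 of 14 (median -0.08), and none had an unadjusted p below 0.05. Alas2, the erythroid form of the pathway's entry enzyme, was at 7090.3, 6379 and 4069 FPKM in wildtype, 2884, 7458 and 2994 in heterozygotes, and 3284, 6811 and 3523 in knockouts (-0.3 ± 0.36). The heterozygous values of Alas2 spanned the whole range of the 9 libraries, with the 4 shallower libraries highest. The direction of the heme list was reversed by quantile normalization (4 of 14 lower, median 0.04) and on the scale without globin genes (6 of 14 lower, 0.03).

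Globins were lower in 6 of 7 (median -0.2). Hbb-bs, an adult beta globin, was at 8711, 7642 and 5453 FPKM in wildtype, 4022, 8985 and 4212 in heterozygotes, and 4646, 8129 and 5118 in knockouts (-0.27 ± 0.3). It was highest in heterozygous replicate 2 and lowest in the other heterozygous libraries. Globin genes made up 4.56%, 4.14% and 2.86% of summed FPKM in wildtype, 2.53%, 5.06% and 2.53% in heterozygotes, and 2.66%, 4.64% and 2.72% in knockouts. Without heterozygous replicate 1, 3 of 7 globins were lower, and without heterozygous replicate 2 the list's median was -0.55.

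The markers that define the sorted cells were high in every library and did not separate the heterozygotes. Gata1, a master regulator of red cell genes, was at 184, 219 and 254 FPKM in wildtype, 196, 190.4 and 206 in heterozygotes, and 226, 171 and 234 in knockouts (-0.11 ± 0.14). Klf1, the activator of adult beta globin, had a contrast of -0.12 ± 0.13, Tfrc, which encodes CD71, -0.11 ± 0.16, and the erythropoietin receptor gene Epor -0.07 ± 0.15. The heterozygous ranges lay inside those of the homozygotes for Gata1. Of 20 erythroid transcription factors 9 were lower (median 0.01), and of 24 red cell membrane and cytoskeleton genes 19 were lower (-0.08), a direction reversed under quantile normalization (3 of 24) and without globins in the scale (9 of 24).

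Hedgehog pathway genes were mostly too low to test: 8 of 28 passed the filter, 7 were higher in heterozygotes (median contrast 0.1) and none had an unadjusted p below 0.05. Ptch1, the receptor and pathway target, was at 2.03, 2.56 and 3.6 FPKM in wildtype, 2.83, 3.41 and 1.9 in heterozygotes, and 2.99, 2.33 and 1.52 in knockouts (0.09 ± 0.21, 95% interval -0.39 to 0.57). Sufu, which holds Gli factors back, was at 1.81, 2.55 and 1.97 in wildtype, 2.44, 3.25 and 2.28 in heterozygotes, and 1.84, 2.83 and 1.4 in knockouts (0.26 ± 0.18). In both genes all 3 groups overlapped. Of 10 BMP signalling genes, a pathway of stress erythropoiesis in the spleen, 7 were higher (0.08).

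Mettl7a3, which lies near Dhh on chromosome 15 (start at 100334929, Dhh at 98891152), had genotype means in the order of allele number. It was listed at 0.0 in all wildtype libraries, at 2.1, 0.759 and 0.0453 FPKM in heterozygotes and at 1.83, 1.98 and 3.24 in knockouts. The heterozygous mean lay between the others and the contrast was -0.02 ± 0.31. Single libraries did not keep that order: heterozygous replicate 1 was above knockout replicates 1 and 2, and heterozygous replicate 3 was near 0. Dhh allele number and sequence carried along with the null allele cannot be told apart for a gene this close. The Mettl7a genes are near-identical copies that can share reads.

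Autophagy and mitophagy genes, which clear mitochondria from maturing red cells, were lower in 25 of 29 (median contrast -0.13), with 2 (6.9%, beside 0.807%) at an unadjusted p below 0.05. On the scale without globin genes 16 of 29 were lower (-0.03), with 0 at that p, beside 14 of all 9543 genes. Pink1, the kinase that marks damaged mitochondria, was at 171, 133 and 97.7 FPKM in wildtype, 94.9, 78.1 and 103 in heterozygotes, and 119.7, 128 and 152 in knockouts (-0.52 ± 0.18, limma p 0.0168 unadjusted). Only wildtype replicate 3 fell within its heterozygous range. Atg12, part of the conjugation system of autophagy, was at 28.4, 27.1 and 24.2 in wildtype, 20.3, 21.3 and 19.9 in heterozygotes, and 26.7, 20.7 and 27.0 in knockouts (-0.3 ± 0.12), with an overlap in knockout replicate 2.

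Interferon response genes were lower in 27 of 32 (median contrast -0.18), with -0.1 against wildtype and -0.2 against knockout, and 2 (6.25%, beside 0.807% of all genes) had an unadjusted p below 0.05. On the scale without globin genes that count was 0, beside 14 of all 9543 genes. By library the list was at -0.04, 0.37 and -0.4 in wildtype, -0.12, -0.11 and -0.1 in heterozygotes, and 0.1, 0.27 and 0.08 in knockouts. The heterozygotes were below all knockouts and between the wildtype libraries. Ifi27 was at 199, 293 and 194 FPKM in wildtype, 169, 179 and 181 in heterozygotes, and 224, 245 and 231 in knockouts (-0.37 ± 0.14), with no overlap. Rtp4 was at 17.7, 31.3 and 18.6 in wildtype, 17.3, 12.7 and 17.8 in heterozygotes, and 22.8, 24.9 and 22.4 in knockouts (-0.49 ± 0.19), and overlapped wildtype. Wildtype replicate 3 weighed the other way here: without it 30 of 32 were lower (median -0.28). Of these, 9 had an unadjusted p below 0.05, beside 167 of all 9543 genes in that setting. Without wildtype replicate 2, 21 of 32 were lower (-0.06). Among the 5 deeper libraries, where wildtype replicate 3 is the only wildtype, 16 of 32 were lower (0.01).

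Markers of other cell types had wide spreads. All 17 B cell markers tested were higher in heterozygotes (median contrast 0.46) and 27 of 30 macrophage markers (0.38), whereas 18 of 20 neutrophil markers were lower (-0.57). No marker on these 3 lists had an unadjusted p below 0.05. Summed over the 17 B cell markers, values were 1550.4, 548 and 100.1 FPKM in wildtype, 701, 739.9 and 916 in heterozygotes, and 391, 981 and 753 in knockouts. The 20 neutrophil markers summed to 1285, 1931 and 381 in wildtype, 317, 919.7 and 920.1 in heterozygotes, and 489, 1803 and 1467 in knockouts. Heterozygotes lay inside the wildtype range for B cells, and heterozygous replicate 1 was the lowest library for neutrophil markers. Without wildtype replicate 3 the B cell median was 0.03 and 19 of 30 macrophage markers were lower, and without heterozygous replicate 1 the neutrophil median was -0.16.

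Of 40 genes of DNA replication 32 were lower (median contrast -0.04), and of 32 mitosis genes 26 (-0.06). Both directions turned without wildtype replicate 3, to 4 of 40 and 14 of 32 lower, and on the scale without globins, to 3 of 40 and 8 of 32. Cholesterol synthesis genes were higher in 18 of 21 (0.06), and 11 of 21 were lower under quantile normalization. Of 44 replication-dependent histone genes 34 were higher (0.35), none at an unadjusted p below 0.05. Hist1h4d had the lowest p of these, and was at 6.28, 2.94 and 6.23 FPKM in wildtype, 8.1, 28.1 and 6.93 in heterozygotes, and 11.6, 3.05 and 5.42 in knockouts (1.0 ± 0.48). The value of 28.1 in heterozygous replicate 2 carried it, and without that library 19 of 44 histone genes were lower (median 0.04).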

How the data were processed

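The authors deposited 1 table of FPKM values for 20368 genes and 9 libraries. Per the submitters' processing notes, TopHat, Picard, DESeq2 and build mm10 were used, without versions or roles. For annotation, strandedness and read pairing the entry is "not given in the sources used here". FPKM can therefore not be told from RPKM, and overlapping, antisense or near-identical genes may share reads. In 14147 genes, those above 0 in 2 or more libraries, each value was a whole multiple of a step of that gene (tolerance 0.05 reads), which gave the reads per library. Size factors by median of ratios over 11276 genes matched the steps. 20028 identifiers (98.3%) matched GENCODE M21, and 26 date-like symbols were restored.

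Values were analysed as log2(FPKM + 1), which understates folds of low genes. Limma 3.58.1 in R 4.3.3 (1 mean per genotype, all 9 libraries, eBayes with trend) tested the contrast with weights 1 and -0.5, 2-sided, with Benjamini-Hochberg adjustment over 9543 genes. Simulated data for this contrast had 200 changed genes in each of 5 simulations. Of genes changed 1.5-fold 17.3% were called, of those changed 2-fold 65% and of those changed 4-fold 91.9%, and 3.8% of calls were false. The simulation gave each gene 1 spread in all libraries and noise independent between genes. The real libraries differ in spread (median SD 0.141 in heterozygotes, 0.257 in wildtype and 0.222 in knockouts) and vary together, so these rates may not hold for them. All 36 pairs of libraries differed beyond sampling noise (chi-square over its degrees of freedom 8.7 or more). Members and lists were chosen with earlier results of these data known. Named genes were Dhh and 7 other fixed genes, the 12 lowest p in each direction, the 5 lowest in each direction outside both homozygotes, and of each list the 2 lowest p and the most abundant member; others (the alpha globin region, Mettl7a3, Y-linked genes, mitochondrial genes outside the lists and the other respiratory genes at a low p) were chosen after their values were seen. 1 gene that the rule names is not reported here. Other tools were matplotlib 3.10.9, pandas 2.3.3 and numpy 2.4.6 in Python 3.11.15.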

Additional observations from a re-analysis of the deposited data

How the results depend on the processing

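The count of 0 genes in heterozygous minus mean of wildtype and knockout stayed at 0 with each library left out (range 0 to 0) and with other pseudocounts, filters, scalings, a depth term, a leukocyte term, voom and an adjusted p below 0.1. It was 1 with library quality weights (Hbq1b, adjusted p 0.0326), 1 among the 4 shallower libraries (Lars2), where the heterozygotes and knockouts are 1 library each, and 1177 among the 5 deeper libraries, where wildtype is 1 library. A lone library is assumed to vary like the other groups. The count for heterozygous outside both homozygous genotypes was 0 to 0 with a library left out and 1 among the shallower libraries. For knockout minus wildtype it was 0 to 0 with a library left out, 1910 with quality weights, 929 among the deeper and 3 among the shallower libraries. The cause was not tested.

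At an unadjusted p below 0.05, lower genes numbered 31 (without heterozygous replicate 1) to 244 (without knockout replicate 2) and higher genes 3 to 47 with a library left out. Scaling without globin genes gave 14 lower and 75 higher. With no filter there were 126 lower and 145 higher. Without wildtype replicates 1 and 3 and knockout replicate 2, added after seeing the data, there were 451 lower and 375 higher, and the lowest adjusted p was 0.5323. Of the named genes, the 25 chosen by p kept their direction under each alternative. They were picked for low p in this contrast on the same libraries, so this was largely set by the choice. The 7 fixed genes were not picked by p, and each changed direction in at least 1 setting. The 2 sets can therefore not be compared. Hbb-bs was at 0.0 under quantile normalization and 0.14 among the shallower libraries, and Alas2 at 0.14 among the shallower. Tfrc was at 0.04 under quantile normalization and 0.00039 on the scale without globins, and Klf1 at 0.0035 under quantile normalization. In the order of quantile normalization, the scale without globins and the shallower libraries, Epor was at 0.05, 0.04 and 0.01 and Gata1 at 0.03, 0.0016 and 0.04. Ptch1 ranged from -0.05 (without heterozygous replicate 2) to 0.26 (without heterozygous replicate 3) with a library left out, and was at -0.00052 without knockout replicate 3 and -0.19 among the deeper libraries. The list medians under these alternatives were also added after seeing the data.

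With the replicate number as a replicate block, heterozygous minus mean of wildtype and knockout and knockout minus wildtype each had 0 genes, with 125 lower and 12 higher at an unadjusted p below 0.05 in the contrast. The deviations of same-numbered libraries (1, 2 and 3) correlated at 0.13, 0.18 and 0.0 between heterozygous and wildtype, 0.2, 0.18 and 0.41 between heterozygous and knockout, and -0.57, 0.51 and 0.33 between knockout and wildtype, so the numbers were not taken to pair the 3 genotypes. Genes on few reads, such as Npff with 2 to 13, are limited by depth.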
